A study of Homo sapiens with 8 samples.

Results

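Messenger RNA of 9 genes of the transforming growth factor beta (TGF-beta) pathway was followed in a human ovarian cancer cell line, with and without BRCA1 and with and without resistance to PARP inhibitors. The genes were taken by symbol: the ligands TGFB1, TGFB2 and TGFB3, the receptors TGFBR1 and TGFBR2, the signal transducer SMAD3, the inhibitor SMAD7, the secreted target TGFBI, and INHBA, which is a ligand subunit as well as a target. They are 9 of the 32803 genes in the count table, and 9 of the 16221 that passed the filter on low counts. There were 4 groups with 2 libraries each: Olres-UWB1.289+BRCA1 (resistant BRCA1-proficient, passage 45), UWB1.289+BRCA1 (parental BRCA1-proficient, passage 10), Olres-UWB1.289 (resistant BRCA1-deficient, passage 56) and UWB1.289 (parental BRCA1-deficient, passage 29). UWB1.289 is an ovarian carcinoma line without functional BRCA1, a protein of homologous recombination repair, and UWB1.289+BRCA1 is the same line with BRCA1 restored. PARP inhibitors trap and block poly(ADP-ribose) polymerases. The medium of all 8 cultures held no drug, so the comparisons concern lines grown without it. Each background had 1 resistant derivative, which the labels call neither a clone nor a pool, and which was at a higher passage than its parent, so that resistance and passage cannot be told apart. Each proficient line was also at a lower passage than the deficient line set against it. With 1 line per state, BRCA1 cannot be told apart from passage or from other differences between the lines.

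TGF-beta ligands are secreted in a latent form and released by proteases, integrins or thrombospondin. The active dimer binds the type II receptor TGFBR2, which phosphorylates the type I receptor TGFBR1, and TGFBR1 phosphorylates SMAD2 and SMAD3. These join SMAD4 and enter the nucleus, where they switch genes such as TGFBI and the inhibitor SMAD7. In epithelial cancers the pathway is known both for growth arrest and for mesenchymal change and matrix production.

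The 250 bases upstream of the annotated start are shown for TGFB1, TGFB2, TGFBI and INHBA, the members with a single entry in the RefSeq promoter table (GRCh38.p14) and those whose levels differed most between the BRCA1 backgrounds. Each is written 5′ to 3′ on the gene's own strand, with capitals for GGGCGG (the GC box) or TATAAA (the TATA motif) on either strand. The windows are chr19:41353923-41354172 on the minus strand for TGFB1, chr1:218345086-218345335 on the plus strand for TGFB2, chr5:136028738-136028987 on the plus strand for TGFBI and chr7:41703091-41703340 on the minus strand for INHBA.
TGFB1: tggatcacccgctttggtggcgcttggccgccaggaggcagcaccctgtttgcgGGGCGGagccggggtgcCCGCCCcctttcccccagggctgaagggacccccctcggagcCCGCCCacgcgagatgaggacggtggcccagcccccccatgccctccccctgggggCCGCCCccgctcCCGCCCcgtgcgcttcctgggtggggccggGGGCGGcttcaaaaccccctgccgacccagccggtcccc
TGFB2: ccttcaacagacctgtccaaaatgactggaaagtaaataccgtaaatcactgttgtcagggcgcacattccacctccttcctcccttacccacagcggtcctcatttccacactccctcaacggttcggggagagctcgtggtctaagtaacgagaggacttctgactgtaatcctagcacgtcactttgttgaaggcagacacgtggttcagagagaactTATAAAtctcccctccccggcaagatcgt
TGFBI: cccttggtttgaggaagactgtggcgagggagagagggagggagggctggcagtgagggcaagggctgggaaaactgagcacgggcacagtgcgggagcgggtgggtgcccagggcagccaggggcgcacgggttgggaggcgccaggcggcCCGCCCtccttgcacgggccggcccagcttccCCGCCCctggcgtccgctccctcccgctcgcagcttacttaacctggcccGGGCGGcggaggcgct
INHBA: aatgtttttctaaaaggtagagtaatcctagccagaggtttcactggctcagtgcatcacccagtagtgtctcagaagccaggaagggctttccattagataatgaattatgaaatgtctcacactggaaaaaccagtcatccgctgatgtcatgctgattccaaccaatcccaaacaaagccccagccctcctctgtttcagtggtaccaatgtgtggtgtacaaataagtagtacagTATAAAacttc
The TGFB1 window is 76.8% G and C and holds 6 GC boxes and 0 TATA motifs. The TGFB2 window is 50.4% G and C and holds 0 GC boxes and 1 TATA motif, whose first base lies 29 bases before the start, and the SMAD-binding core CAGAC at 2 places. The TGFBI window (72.8% G and C) has 3 GC boxes, and the INHBA window (42.8%) has 0 GC boxes and 1 TATA motif. Its first base lies 11 bases before the annotated start, nearer than in TGFB2. Of 35116 such windows, 42.64% held a GC box, 10.72% the TATA motif and 38% the CAGAC core, each searched on both strands. Of these genes TGFB2 was the higher with BRCA1, and TGFB1, TGFBI and INHBA were the higher without it. The windows describe letters only, and no binding was measured.

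The libraries held 24094821 to 34394107 counts. BRCA1 was at 2176 and 2365 CPM (counts scaled to library size) in resistant and at 212 and 191 CPM in parental proficient libraries, against 34.7 and 34.8 CPM in resistant and 36.0 and 35.1 CPM in parental deficient libraries, so all proficient libraries lay above all deficient ones, as labelled. The resistant proficient line thus held far more BRCA1 mRNA than its parent. In that background, resistance and BRCA1 level cannot be told apart. Of 10 ovarian carcinoma markers, 10 reached 1 CPM in resistant proficient cells and 9 in each other group; PAX8 averaged 209 to 268 CPM, and WT1 was the marker under 1 CPM. Of 6 fibroblast markers, which matter because fibroblasts are rich in TGF-beta target mRNA, 0 reached 1 CPM in proficient and 1 in deficient groups (THY1), their summed level was 0.622 to 1.006 CPM in proficient and 6.88 to 13.0 CPM in deficient libraries, and PDGFRB, LUM and DPT had between 0 and 2 counts per group. The 5 endothelial markers summed to 3.97 to 8.78 CPM in proficient and 44.0 to 51.3 CPM in deficient libraries, mostly through CDH5, and the 6 leukocyte markers to 18.6 to 29.9 CPM with CD3E at 0 in 3 groups. Of the leukocyte markers, CD14 averaged 21.3 CPM in resistant proficient cells and 0.47 to 2.47 CPM in the other groups. CD68 averaged 16.2 CPM in resistant and 14.3 CPM in parental deficient cells, against 1.18 CPM in resistant and 2.77 CPM in parental proficient cells. PTPRC averaged 4.07 to 12.8 CPM over the groups. Beside the differences between BRCA1 backgrounds, the part of these markers was not tested. In bulk RNA, fewer cells of a type and less RNA per cell cannot be told apart. The resistant deficient libraries were the least alike pair, and the 3845 genes with transcripts over 57.19% G and C differed from their own mean over the libraries, by median on the log2 scale, by -0.31 and -0.61 in resistant and -0.60 and -0.45 in parental proficient libraries, and by 1.04 and 0.67 in resistant and 0.23 and 0.09 in parental deficient libraries. Over 15378 genes, Spearman's rho between GC content and the log2 fold change with resistance was 0.09 in proficient and 0.46 in deficient cells, as a description across genes, which are not replicates. Values with this trend removed are given beside most results whose call changed with it and beside some whose size changed.

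In BRCA1-proficient cells, resistance went with higher TGFB3 and TGFBR1 mRNA and lower SMAD7, TGFBI and INHBA mRNA. In BRCA1-deficient cells, it went with higher TGFB1, SMAD7 and TGFBI mRNA and lower TGFB2, TGFBR2, SMAD3 and INHBA mRNA. INHBA was therefore the member that fell in both backgrounds, while TGFBI and SMAD7 moved in opposite directions. With the GC trend removed, the rises of TGFB1 (0.08) and SMAD7 (0.29) in deficient cells did not pass, while that of TGFBI did (1.06). A member was called where the adjusted p of edgeR's quasi-likelihood test, corrected by Benjamini-Hochberg over all 16221 genes, was under 0.05. Of the 9 members, 2 rose and 3 fell in proficient cells, where 25.9% of all genes tested rose and 27.8% fell. In deficient cells 3 rose and 4 fell, beside 28.9% and 27.0% of all genes. The lines differed so widely that these shares, not 0, are the level against which the members' counts stand.

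**Figure D1:**
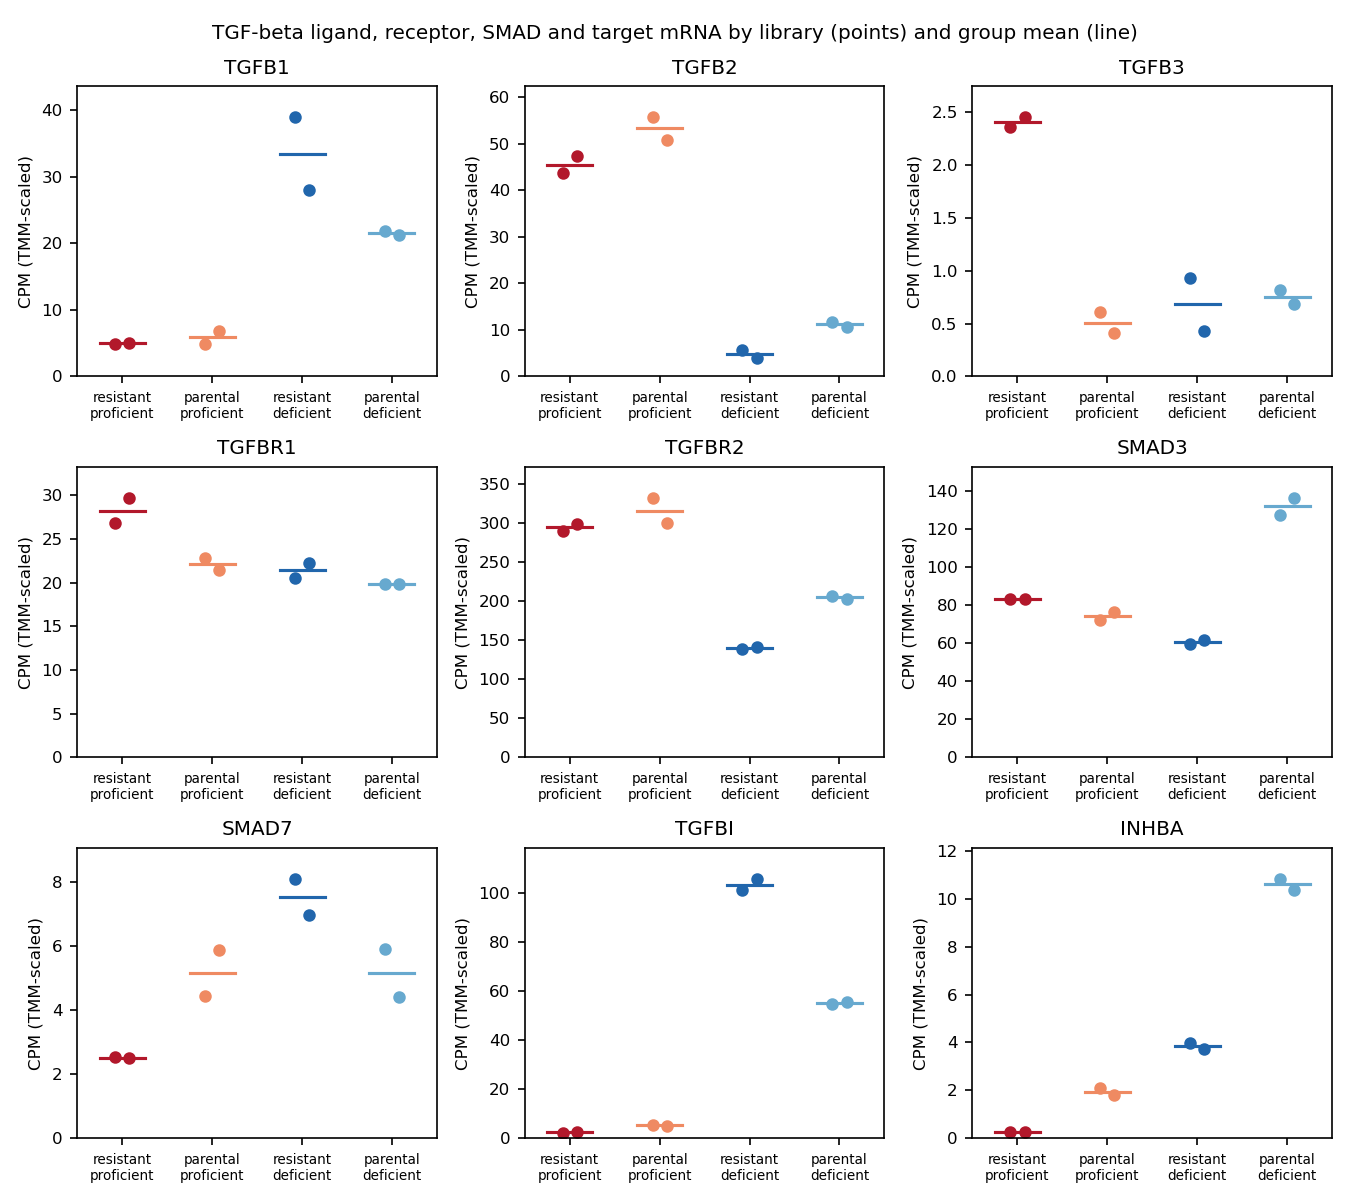
Level of each member in CPM on TMM-scaled library totals (linear axis from 0, its own scale per gene), with a point per library and a line at the mean of the 2 libraries of a group. TGFB1 and TGFBI stand high in the deficient lines and TGFB2 in the proficient ones, and INHBA is lower in each resistant line than in its parent.

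Among the ligands, TGFB1 and TGFB2 took opposite sides of the BRCA1 difference, and TGFB3 was low throughout. TGFB1, the most widely expressed TGF-beta, was at 4.89 and 5.04 CPM in resistant proficient and 4.92 and 6.81 CPM in parental proficient libraries, and at 38.9 and 28.0 CPM in resistant deficient and 21.8 and 21.3 CPM in parental deficient libraries. All 4 deficient libraries lay above all 4 proficient ones, and the resistant and parental proficient values overlapped. Restored BRCA1 went with a 6.73-fold lower TGFB1 level among resistant lines (log2 fold change -2.75 ± 0.19, SE, edgeR adjusted p = 2.56e-07) and a 3.66-fold lower one among parental lines (-1.87 ± 0.19, adjusted p = 8.17e-06). With the GC trend removed the difference was -1.70 between resistant and -1.28 between parental lines, both still past the threshold.

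Within the proficient background TGFB1 did not pass the test for resistance (log2 fold change -0.25 ± 0.21, edgeR adjusted p = 0.337). Within the deficient background it rose 1.55-fold (0.63 ± 0.17, adjusted p = 0.00902), with no overlap between the libraries. That call rested on the first resistant deficient library, without which the value was 0.35 (adjusted p = 0.0922), and it was lost without the second parental deficient library (0.59, adjusted p = 0.0714). TGFB1 transcripts have a GC content of 59.63%, above 83.1% of the genes tested, and with the GC trend removed the value was 0.08 (adjusted p = 0.527).

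TGFB2, the isoform that needs the co-receptor TGFBR3 to bind its receptors well, was at 43.7 and 47.2 CPM in resistant proficient and 55.7 and 50.9 CPM in parental proficient libraries. In deficient cells it was at 5.76 and 3.87 CPM in resistant and 11.7 and 10.7 CPM in parental libraries. The 4 groups did not overlap, and the order ran from parental proficient down to resistant deficient. TGFB2 was 9.52-fold higher with BRCA1 among resistant lines (log2 fold change 3.25 ± 0.16, edgeR adjusted p = 1.71e-08) and 4.76-fold higher among parental lines (2.25 ± 0.15, adjusted p = 3.31e-07). With the GC trend removed these values were 2.62 between resistant and 1.87 between parental lines, both past the threshold. It was 2.34-fold lower with resistance in the deficient background (-1.23 ± 0.16, adjusted p = 0.000103; -0.91 with the GC trend removed), and in proficient cells the change of -0.23 ± 0.14 did not pass (adjusted p = 0.185), although it did when only these 4 libraries were fitted (-0.22, adjusted p = 0.0468).

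TGFB3 was at 2.36 and 2.46 CPM in resistant proficient libraries, against 0.605 and 0.415 CPM in parental proficient libraries. In deficient cells it was at 0.936 and 0.434 CPM in resistant and 0.822 and 0.688 CPM in parental libraries. The resistant proficient line stood above the other 6 libraries, which overlapped one another. It rested on 68 and 59 counts, against 15 and 12 in the parental proficient libraries. The rise with resistance in proficient cells was 4.73-fold (log2 fold change 2.24 ± 0.41, edgeR adjusted p = 0.000774), and the value in deficient cells was -0.17 ± 0.42 (adjusted p = 0.759).

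Counted together, the ligand mRNA was led by TGFB2 in proficient and by TGFB1 in deficient cells. TGFB2 made up 85.8% and 86.3% of the summed TGFB1, TGFB2 and TGFB3 counts in resistant proficient libraries and 91.0% and 87.6% in parental proficient libraries. TGFB1 made up 9.60% and 9.20% in resistant and 8.03% and 11.7% in parental proficient libraries, against 85.3% and 86.7% in resistant deficient and 63.6% and 65.1% in parental deficient libraries. In deficient cells its share was therefore higher in the resistant than in the parental line. The 95% Wilson intervals of the TGFB1 share reached from 83.3% to 88.5% over the resistant deficient libraries and from 60.6% to 67.9% over the parental deficient ones, and cover counting error only. Scaled to exon length, so that levels of different genes can be compared, TGFB1 was 15.7% and 15.1% of the ligand mRNA in resistant and 13.6% and 19.4% in parental proficient libraries, and 90.5% and 91.6% in resistant and 75.1% and 76.5% in parental deficient libraries. The leading ligand was therefore the same with and without the length scale. TGFB2 transcripts have a GC content of 38.72%, above 5.70% of the genes tested, so these ligands stand near opposite ends of the GC range.

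**Figure D2:**
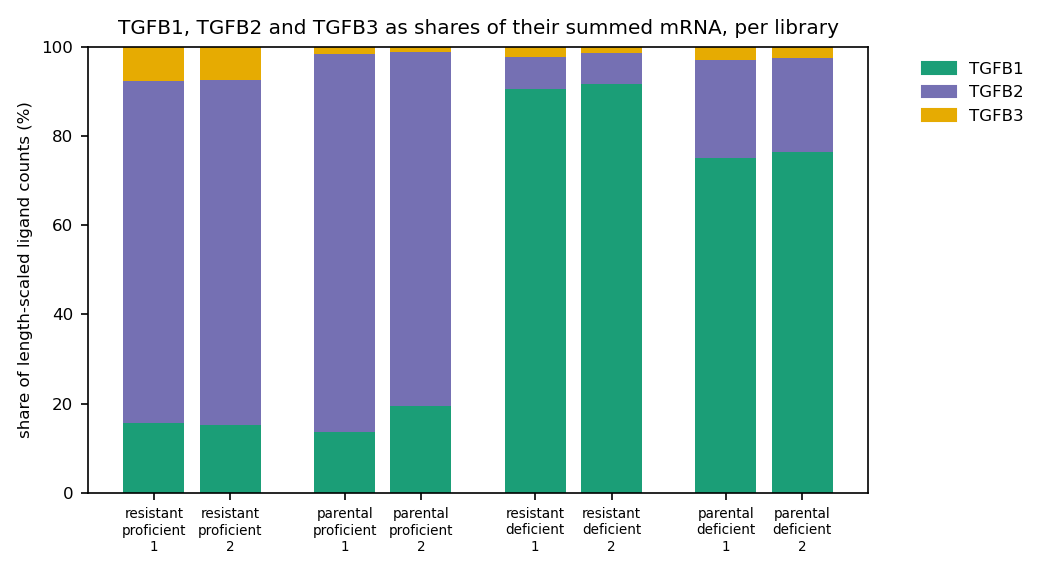
Share of TGFB1, TGFB2 and TGFB3 in their summed counts after division by exon length (percent, linear axis from 0 to 100), with a bar per library. TGFB2 fills most of each proficient bar, TGFB1 most of each deficient bar, and TGFB3 is largest in the resistant proficient libraries at 7.55% and 7.34%.

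INHBA encodes the beta A subunit, whose dimer is activin A, a ligand that signals through activin receptors to the same SMAD2 and SMAD3. It was at 0.278 and 0.250 CPM in resistant proficient libraries (8 and 6 counts), against 2.10 and 1.80 CPM in parental proficient libraries (52 and 52 counts). In deficient cells it was at 3.996 and 3.73 CPM in resistant and 10.8 and 10.4 CPM in parental libraries. The 4 groups did not overlap, and within each background the resistant line was the lower. INHBA fell 7.23-fold with resistance in proficient cells (a log2 fold change of -2.85 ± 0.30, edgeR adjusted p = 1.16e-05) and 2.74-fold in deficient cells (-1.46 ± 0.18, adjusted p = 5.66e-05). The proficient lines were also lower than the deficient ones, 14.4-fold among resistant lines (-3.84 ± 0.27, adjusted p = 2.69e-07) and 5.45-fold among parental lines (-2.45 ± 0.19, adjusted p = 1.25e-06). Over the 17 other settings tried, the fall stayed between -2.97 and -2.71 in proficient cells and between -1.53 and -1.43 in deficient cells.

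Of the receptors, TGFBR2 stood higher in the proficient than in the deficient lines, and TGFBR1 varied less. TGFBR2, the receptor that binds the ligand first, was at 290 and 299 CPM in resistant proficient and 332 and 300 CPM in parental proficient libraries, and at 138 and 142 CPM in resistant deficient and 207 and 203 CPM in parental deficient libraries. The proficient groups lay above the deficient ones, and the resistant and parental proficient libraries were within 1.07-fold of each other on average. TGFBR2 was 1.46-fold lower with resistance in deficient cells (-0.55 ± 0.07 on the log2 scale, edgeR adjusted p = 4.57e-05; -0.35, adjusted p = 1.58e-06, with the GC trend removed) and gave -0.10 ± 0.06 in proficient cells (adjusted p = 0.212). With BRCA1 it was 2.10-fold higher among resistant lines (1.07 ± 0.07, adjusted p = 8.65e-08) and 1.54-fold higher among parental lines (0.62 ± 0.06, adjusted p = 9.79e-06), with values of 0.72 between resistant and 0.46 between parental lines once the GC trend was removed. Per kilobase of exon it was the most abundant member in proficient cells, at 62.6 ± 1.3 CPM per kilobase in resistant and 67.1 ± 4.8 in parental lines (SD, n = 2 each), and in deficient cells it was at 29.8 ± 0.5 in resistant and 43.6 ± 0.5 in parental lines.

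TGFBR1, the kinase that phosphorylates the SMADs, was at 26.8 and 29.7 CPM in resistant proficient and 22.9 and 21.5 CPM in parental proficient libraries, and at 20.6 and 22.3 CPM in resistant deficient and 19.9 and 19.9 CPM in parental deficient libraries. The highest and lowest group means were 28.2 ± 2.0 and 19.9 ± 0.007 CPM (SD, n = 2 each), and the parental proficient and resistant deficient libraries overlapped. It rose 1.27-fold with resistance in proficient cells (a log2 fold change of 0.35 ± 0.11, edgeR adjusted p = 0.0188), a call lost without the second resistant proficient library (0.31, adjusted p = 0.0776) or the second parental proficient library (0.30, adjusted p = 0.123). In deficient cells the value was 0.11 ± 0.11 (adjusted p = 0.418), and 0.39 with the GC trend removed, where it passed (adjusted p = 0.000572). TGFBR1 was 1.32-fold higher with BRCA1 among resistant lines (0.40 ± 0.11, adjusted p = 0.00628), but this turned to -0.19 (adjusted p = 0.0499) with the GC trend removed.

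SMAD3, the transducer that binds DNA at target genes, was highest in the parental deficient line and lowest in its resistant derivative. It was at 83.4 and 83.3 CPM in resistant proficient and 72.3 and 76.4 CPM in parental proficient libraries, and at 59.5 and 61.4 CPM in resistant deficient and 127 and 136 CPM in parental deficient libraries. The 4 groups did not overlap. SMAD3 fell 2.18-fold with resistance in deficient cells (-1.12 ± 0.07 on the log2 scale, edgeR adjusted p = 4.72e-07), and over the 17 other settings the value was between -1.38 and -1.11. In proficient cells the value was 0.16 ± 0.07 (adjusted p = 0.0663), which passed under 6 of the 17 other settings, among them RLE factors (0.20, adjusted p = 0.0292). The side of the BRCA1 difference was not the same in resistant and parental lines. SMAD3 was 1.38-fold higher with BRCA1 among resistant lines (0.46 ± 0.07, adjusted p = 9.98e-05; 0.98 with the GC trend removed) and 1.77-fold lower with BRCA1 among parental lines (-0.83 ± 0.07, adjusted p = 1.88e-06; -0.46 with the GC trend removed).

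SMAD7, the inhibitory SMAD that binds the type I receptor and is itself induced by the pathway, was at 2.53 and 2.50 CPM in resistant proficient and 4.43 and 5.88 CPM in parental proficient libraries, and at 8.10 and 6.97 CPM in resistant deficient and 5.92 and 4.42 CPM in parental deficient libraries. The parental lines overlapped, and the resistant lines lay on opposite sides of them. SMAD7 fell 2.05-fold with resistance in proficient cells (a log2 fold change of -1.04 ± 0.23, edgeR adjusted p = 0.00279), which passed under all 17 other settings. Its rise in deficient cells was 1.46-fold (0.54 ± 0.21, adjusted p = 0.0454) and was lost under 10 of the 17 other settings, for example with DESeq2 (0.56, adjusted p = 0.102), with the GC trend removed (0.29, adjusted p = 0.171), without the first resistant deficient library (0.41, adjusted p = 0.186) and without the second parental deficient library (0.32, adjusted p = 0.351). With BRCA1 it was 2.99-fold lower among resistant lines (-1.58 ± 0.23, adjusted p = 6.72e-05; -1.07 with the GC trend removed), while among parental lines the difference was 0.00 ± 0.21 (adjusted p = 0.993).

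TGFBI, a secreted matrix protein named for its induction by TGF-beta, was at 2.36 and 2.75 CPM in resistant proficient and 5.40 and 5.18 CPM in parental proficient libraries, and at 101 and 106 CPM in resistant deficient and 54.8 and 55.7 CPM in parental deficient libraries. The 4 groups did not overlap. TGFBI fell 2.08-fold with resistance in proficient cells (a log2 fold change of -1.06 ± 0.13, edgeR adjusted p = 4.06e-05) and rose 1.87-fold in deficient cells (0.91 ± 0.08, adjusted p = 7.07e-06). Both calls held under all 17 other settings, between -1.13 and -0.89 in proficient and between 0.84 and 1.06 in deficient cells. With BRCA1, TGFBI was 40.7-fold lower among resistant lines (-5.35 ± 0.11, adjusted p = 2.67e-11) and 10.4-fold lower among parental lines (-3.38 ± 0.10, adjusted p = 1.16e-09). Per kilobase of exon its level was 0.888 ± 0.095 CPM in resistant and 1.84 ± 0.05 CPM in parental proficient lines, and 36.0 ± 1.1 CPM in resistant and 19.2 ± 0.2 CPM in parental deficient lines (SD, n = 2 each), so that in resistant deficient cells it was the most abundant member.

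**Figure D3:**
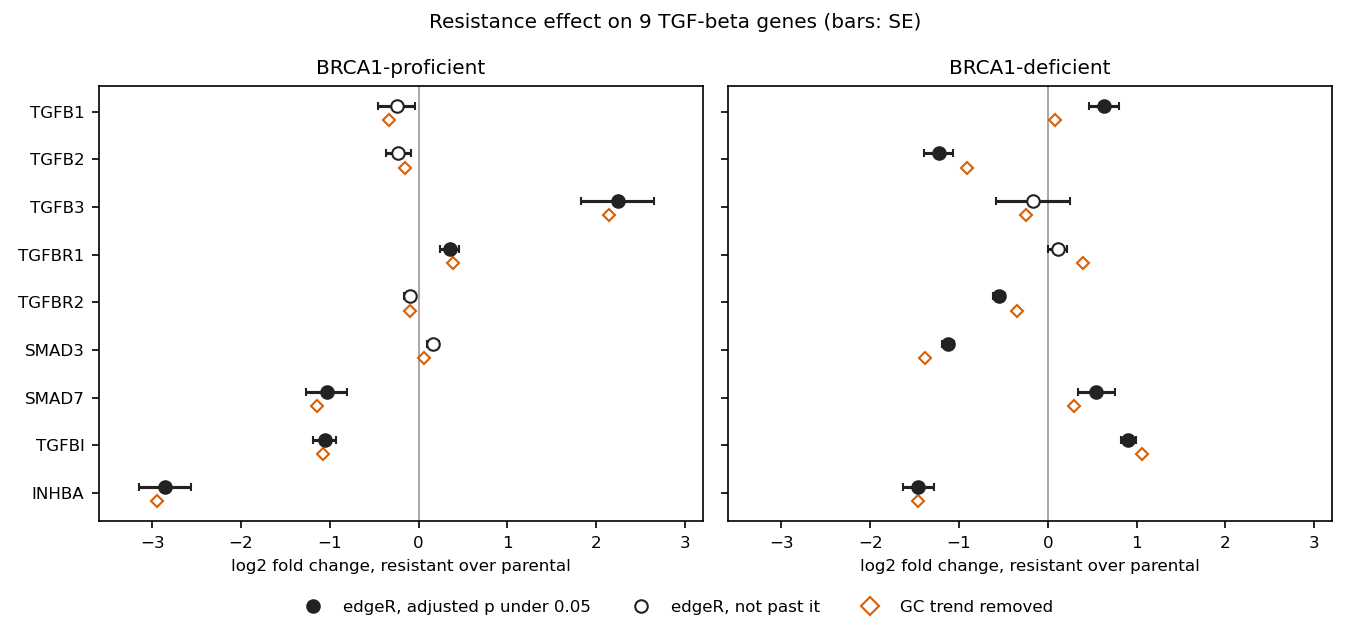
Log2 fold change of each member, resistant over parental, in BRCA1-proficient (left) and BRCA1-deficient cells (right), from edgeR with bars of 1 SE (filled where the adjusted p was under 0.05), and after removal of the GC trend (diamonds). TGFBI lies on opposite sides of 0 in the panels, INHBA lies below 0 in both, and TGFB1 in deficient cells moves to 0.08 when the GC trend is removed.

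The resistance effects themselves were set against each other, as the proficient effect minus the deficient effect. This difference passed for 8 of the 9 members, 4 with a positive and 4 with a negative value, while 21.4% of all genes tested had a positive and 25.3% a negative difference past the threshold. It was -1.96 ± 0.15 for TGFBI (edgeR adjusted p = 2.63e-06), -1.58 ± 0.31 for SMAD7 (0.00178) and -1.40 ± 0.36 for INHBA (0.00849), so that INHBA fell further in proficient cells. It was 1.29 ± 0.10 for SMAD3 (adjusted p = 2.23e-06), 0.998 ± 0.214 for TGFB2 (0.003), 2.41 ± 0.59 for TGFB3 (0.00649) and 0.45 ± 0.09 for TGFBR2 (0.00229; 0.26 with the GC trend removed). For TGFB1 it was -0.88 ± 0.27 (adjusted p = 0.0195), a call lost under 7 of 16 other settings, with values of -1.03 to -0.42, and for TGFBR1 0.24 ± 0.15 did not pass (adjusted p = 0.23). Between the backgrounds, 5 members were higher and 4 lower with BRCA1 among resistant lines, beside 36.3% and 37.5% of all genes tested. Among parental lines 2 were higher and 4 lower, beside 32.3% and 30.1%. These comparisons share libraries with the resistance comparisons and are not independent of them.

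Beyond the members, 86 other genes of the pathway were grouped by role, and 78 of them passed the filter. In proficient cells 23 rose and 30 fell with resistance, with a median log2 fold change of -0.09 (0.00 over all genes tested), and in deficient cells 36 rose and 26 fell, with a median of 0.22 (0.03 over all genes tested). Of all genes tested, 25.9% rose and 27.8% fell in proficient cells, and 28.9% rose and 27.0% fell in deficient cells. These shares are also the level for the counts by role that follow. Among the SMADs and their partners, 0 of 9 rose and 6 fell in proficient cells, and 3 rose and 4 fell in deficient cells. SMAD2, the partner of SMAD3, did not pass in proficient (-0.18 ± 0.08, edgeR adjusted p = 0.0868) or deficient cells (0.05 ± 0.08, adjusted p = 0.599), although it passed with the GC trend removed (-0.15 in proficient and 0.29 in deficient cells). SMAD4, the common partner, fell in proficient cells (-0.37 ± 0.07, adjusted p = 0.00133) and in deficient cells (-0.31 ± 0.07, adjusted p = 0.00398), where it was -0.02 with the GC trend removed (adjusted p = 0.779). ZFYVE9 (SARA), which presents SMAD2 to the receptor, fell in both (-0.64 in proficient and -0.57 in deficient cells, the deficient value being -0.31 with the GC trend removed). Of the SMADs of the BMP branch, SMAD5 fell in proficient cells (-0.41 ± 0.08, adjusted p = 0.00119) and rose in deficient cells (0.34 ± 0.08, adjusted p = 0.0044), the rise being lost without the second resistant deficient library (0.21, adjusted p = 0.0571). SMAD1 was at -0.17 ± 0.14 in proficient cells (adjusted p = 0.329) and fell in deficient cells (-0.65 ± 0.14, adjusted p = 0.00237). TRIM33, a SMAD4 ubiquitin ligase, fell in both (-0.30 in proficient and -0.52 in deficient cells), in proficient cells not without the first resistant library (-0.20, adjusted p = 0.107) or the first parental library (-0.25, adjusted p = 0.0789). SMAD9 was at -0.63 in proficient cells (adjusted p = 0.0455), lost for example with RLE factors (-0.59, adjusted p = 0.0589) and without the first resistant proficient library (-0.49, adjusted p = 0.233).

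Of 10 other receptors and co-receptors tested, 3 rose and 5 fell in proficient cells, and 1 rose and 7 fell in deficient cells. TGFBR3 (betaglycan), the co-receptor for TGFB2, was at 36.2 and 36.7 CPM in resistant proficient and 27.8 and 23.98 CPM in parental proficient libraries, and at 1.33 and 1.62 CPM in resistant deficient and 5.76 and 6.37 CPM in parental deficient libraries. Like TGFB2 it stood higher in all proficient libraries, and it fell 4.08-fold with resistance in deficient cells (-2.03 ± 0.17 on the log2 scale, edgeR adjusted p = 3.53e-06). Its rise in proficient cells (0.49 ± 0.13, adjusted p = 0.00618) was lost without the second parental proficient library (0.39, adjusted p = 0.0783). ACVR1B, a type I activin receptor, fell in both backgrounds (-0.55 ± 0.09 in proficient, adjusted p = 0.00027, and -0.76 ± 0.09 in deficient cells, adjusted p = 3.5e-05), as did INHBA. ACVR1C, another type I receptor, rose in proficient cells (0.89 ± 0.18, adjusted p = 0.00135) and fell in deficient cells (-0.58 ± 0.21, adjusted p = 0.0329), a fall lost under 6 of the 17 other settings, for example with DESeq2 (adjusted p = 0.0833) and with the GC trend removed (-0.35, adjusted p = 0.137). ENG (endoglin) fell in proficient cells (-0.84 ± 0.21, adjusted p = 0.00574), though not without the first resistant proficient library (-0.55, adjusted p = 0.0833). In deficient cells ENG was at 0.51 ± 0.16 (adjusted p = 0.0204), a call that turned to -0.34 with the GC trend removed.

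Of 11 genes of latency and activation, 5 rose and 2 fell in proficient cells, with a median of 0.70, and 6 rose and 1 fell in deficient cells, with a median of 0.71. LTBP1, which ties latent TGF-beta to the matrix, was at 308 and 290 CPM in resistant proficient and 127 and 125 CPM in parental proficient libraries, and at 12.1 and 12.5 CPM in resistant deficient and 22.5 and 23.5 CPM in parental deficient libraries. It rose in proficient cells (a log2 fold change of 1.242 ± 0.065, edgeR adjusted p = 6.74e-08) and fell in deficient cells (-0.90 ± 0.08, adjusted p = 3.95e-06). ITGAV, the integrin chain that can activate latent TGF-beta, rose in both (1.29 ± 0.08 in proficient and 0.60 ± 0.07 in deficient cells, the deficient value being 0.94 with the GC trend removed). LTBP2, a matrix protein of the same family, also rose in both (1.13 in proficient and 1.43 in deficient cells, the deficient value being 0.71 with the GC trend removed). THBS1, thrombospondin, was at 188 and 175 CPM in resistant and 202 and 186 CPM in parental proficient libraries, and at 1032 and 1014 CPM in resistant and 434 and 413 CPM in parental deficient libraries. It rose 2.42-fold in deficient cells (1.27 ± 0.07, adjusted p = 1.36e-07) and did not pass in proficient cells (-0.09 ± 0.07, adjusted p = 0.253). With the GC trend removed, THBS1 passed as a small fall in proficient cells (-0.21, edgeR adjusted p = 0.0015). LTBP4 rose in deficient cells (2.65 ± 0.31, adjusted p = 4.22e-05), and by 1.49 with the GC trend removed. In proficient cells LTBP4 was at 0.70 and did not pass (edgeR adjusted p = 0.0793). It passed there under 8 of the 17 other settings, among them the GC trend removed (0.66).

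Of 8 other ligands tested, 4 rose and 2 fell in each background. BMP4 rose in both (log2 fold change 1.58 ± 0.13 in proficient and 1.31 ± 0.12 in deficient cells), and GDF15, a stress-induced ligand, fell in both (-2.26 ± 0.19 in proficient and -1.04 ± 0.22 in deficient cells, the deficient value being -1.74 with the GC trend removed). GDF11 rose 2.43-fold in proficient cells (1.28 ± 0.11, edgeR adjusted p = 2.34e-06) and fell in deficient cells (-0.48 ± 0.11, adjusted p = 0.00321). BMP6 moved the other way, with -0.88 ± 0.16 in proficient (adjusted p = 0.000615) and 1.33 ± 0.17 in deficient cells (adjusted p = 6.44e-05).

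Of 15 inhibitors, 3 rose and 6 fell in proficient cells, and 7 rose and 5 fell in deficient cells. FST (follistatin), which binds and neutralises activin, was at 302 and 307 CPM in resistant proficient libraries, against 23.4 and 24.2 CPM in parental proficient libraries. This was a rise of 12.8-fold (log2 fold change 3.68 ± 0.07, edgeR adjusted p = 6.88e-11) in the line in which INHBA was lowest, and FST fell in deficient cells (-0.56 ± 0.07, adjusted p = 9.9e-05). PMEPA1, an inhibitor that the pathway itself induces, was at 28.5 and 27.6 CPM in resistant proficient and 41.4 and 41.1 CPM in parental proficient libraries, and at 705 and 635 CPM in resistant deficient and 178 and 168 CPM in parental deficient libraries. It had the directions of TGFBI and SMAD7, falling in proficient (-0.55 ± 0.08, adjusted p = 9.53e-05) and rising in deficient cells (1.96 ± 0.07, adjusted p = 9.35e-09). GREM1, an antagonist of BMPs, likewise fell in proficient (-2.66 ± 0.15, adjusted p = 1.12e-07) and rose in deficient cells (1.02 ± 0.13, adjusted p = 7.79e-05). BAMBI, a decoy receptor, fell in both (-2.71 in proficient and -1.61 in deficient cells). NOG, which binds BMPs, rose in both (1.55 ± 0.23 in proficient cells, adjusted p = 0.000176, and 1.13 ± 0.18 in deficient cells, adjusted p = 0.000308; 0.60 in deficient cells with the GC trend removed). FSTL3, a relative of follistatin, was at 0.22 ± 0.17 in proficient cells (adjusted p = 0.3) and rose in deficient cells (1.08 ± 0.15, adjusted p = 0.000132), without passing once the GC trend was removed (0.20, adjusted p = 0.0598).

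Of 25 other target genes, 8 rose and 9 fell in proficient cells, with a median of -0.34, and 15 rose and 7 fell in deficient cells, with a median of 0.67. CCN2, a secreted matrix regulator, was at 1357 and 1404 CPM in resistant and 1237 and 1181 CPM in parental proficient libraries, and at 1796 and 1718 CPM in resistant and 953 and 941 CPM in parental deficient libraries. CCN2 had no GC value, so its changes were not tested with the GC trend removed. It rose 1.85-fold in deficient cells (0.89 ± 0.06, adjusted p = 6.23e-07) and slightly in proficient cells (0.19 ± 0.06, adjusted p = 0.0152), a call that was lost without the second parental proficient library (0.16, adjusted p = 0.134).

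The deepest falls among the pathway genes tested were those of FN1 and COL1A2, both matrix genes. FN1 (fibronectin) was at 159 and 147 CPM in resistant proficient libraries, against 7065 and 6935 CPM in parental proficient libraries, a fall of 45.7-fold (log2 fold change -5.52 ± 0.07, edgeR adjusted p = 4.48e-12). In deficient cells it was at 5845 and 5994 CPM in resistant and 9851 and 9997 CPM in parental libraries (-0.75 ± 0.06, adjusted p = 2.46e-06). COL1A2, a collagen I chain, was at 1.30 and 0.72 CPM in resistant deficient libraries, against 56.1 and 47.1 CPM in parental deficient libraries, a fall of 52.2-fold (-5.71 ± 0.19, adjusted p = 7.59e-09), and fell 1.62-fold in proficient cells (-0.70 ± 0.13, adjusted p = 0.00104). ID3 was at -0.97 ± 0.47 in proficient cells (adjusted p = 0.102), which passed under 4 of the 17 other settings, and rose in deficient cells (3.67 ± 0.42, adjusted p = 3.22e-05). SNAI2 fell in proficient cells (-1.34 ± 0.50, adjusted p = 0.0433), a call lost under 10 of the 17 other settings and at -0.69 without the second resistant proficient library (adjusted p = 0.25), and SNAI2 rose in deficient cells (2.34 ± 0.27, adjusted p = 3.64e-05). JUNB fell in proficient cells (-1.76 ± 0.35, adjusted p = 0.00138) and rose in deficient cells (1.44 ± 0.29, adjusted p = 0.00166), where it was 0.34 and did not pass with the GC trend removed (adjusted p = 0.052). CDKN1A, a cell cycle inhibitor, rose in proficient cells (1.65 ± 0.16, adjusted p = 6.81e-06) and was at 0.43 ± 0.19 in deficient cells (adjusted p = 0.0709).

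**Figure D4:**
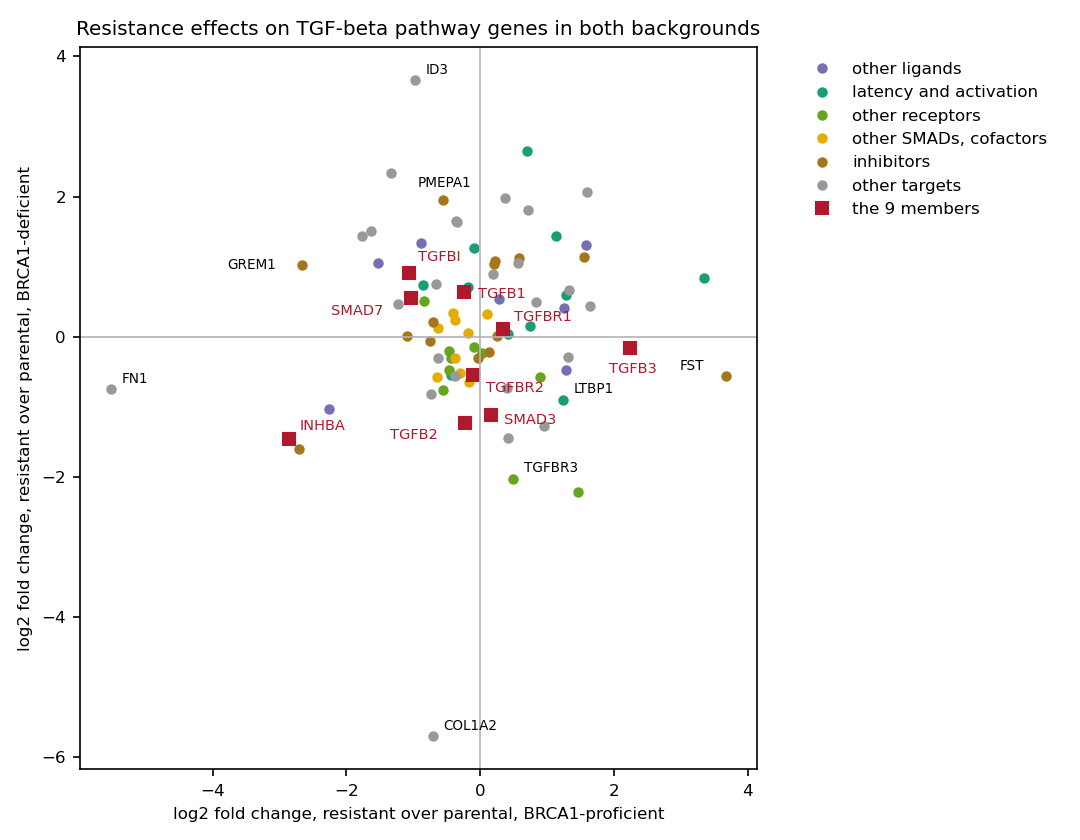
Log2 fold change, resistant over parental, in BRCA1-proficient (horizontal) and BRCA1-deficient cells (vertical), for the 9 members (squares) and for 77 of the 78 other pathway genes tested (circles, by role). TGFBI, SMAD7 and PMEPA1 lie in the upper left, INHBA in the lower left, and FN1 and COL1A2 far out along different axes. BMP7, with 0 counts in parental and 61 in resistant deficient cells, is left out, since its fold change has no fixed value. It would be 21.3-fold if the parental deficient group were set at 3 counts, without counting error or spread between libraries.

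Between the BRCA1 backgrounds, the other pathway genes counted 31 higher and 32 lower with BRCA1 among resistant lines and 39 higher and 21 lower among parental lines, of 78 tested. Of all genes tested, 36.3% were higher and 37.5% lower among resistant lines, and 32.3% higher and 30.1% lower among parental lines. All 9 SMADs and partners tested were higher with BRCA1 among parental lines and 7 of 9 among resistant lines, and 9 of 10 receptors were higher among resistant lines. Removal of the GC trend ended or turned part of these: SMAD4 went to -0.02 among parental and -0.32 among resistant lines, SMAD5 to -0.06 and SMAD2 to 0.10 among resistant lines (adjusted p = 0.101 for SMAD2), and SMAD1 to 0.19 among parental lines (adjusted p = 0.144). The SMAD1 call among parental lines (0.34 ± 0.14, adjusted p = 0.0482) was lost under 13 of the 17 other settings, for example with RLE factors (0.33, adjusted p = 0.0551) and with DESeq2 (0.33, adjusted p = 0.0918).

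By the root mean square (RMS) difference of log2 CPM over the 8 libraries, each gene centred on its own mean, the genes most like each member were found among 11039 or 11040 genes with at least 5 CPM on average. TGFBR2 was closest to CAND1 (0.04, against a spread of TGFBR2 itself of 0.47) and ATG2B (0.05). TGFB1 was closest to WDR4 (0.11, against 1.18) and PUF60 (0.14), and TGFB2 had GLIS3 as a near neighbour (0.19, against 1.45). TGFBI was closest to TGM2 (0.20, against 2.22) and IFITM2 (0.38), and INHBA to PTX3 (0.41, against 1.83) and TGM1 (0.47). SMAD3 was closest to IDI1 (0.09) and CORO1C (0.13), SMAD7 to CDK11B (0.11) and PPARGC1B (0.13), TGFBR1 to HELQ and VPS8 (0.04 each) and TGFB3 to GLT8D2 (0.29) and PCDHA6 (0.30). With 4 groups of libraries, many genes share such a pattern, and the likeness describes these libraries only.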

How the data were processed

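RNA-seq of 8 libraries was analysed from a table of counts per gene symbol that the authors deposited without normalisation. The submitters' processing notes name Trimmomatic 0.39, featureCounts, Subread 2.0.1, DESeq2 1.24.0 and GRCh37, with no role or order. Annotation and strand setting are stated nowhere in these notes, and overlapping or antisense genes may share counts. Titles gave the groups. The labels do not call replicates separate cultures. The p-values therefore cover the spread between libraries only, which may be technical. No pair of replicates was alike within sampling noise (chi-square per degree of freedom 4.37 to 23.9).

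All 8 libraries entered 1 fit of edgeR 4.0.16 (R 4.3.3) with TMM factors and filterByExpr, without covariates and with 4 residual degrees of freedom. Its quasi-likelihood test was adjusted by Benjamini-Hochberg over 16221 genes, and the SE is the log2 fold change over the square root of F. CPM use TMM-scaled totals. Transcript GC content and exon length come from GENCODE on GRCh38, which may differ from the authors' annotation, and 94.8% of the genes tested and 100% of the members had a GC value. The trend on GC was removed per library with a 5-degree natural spline.

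Alternatives were RLE factors, library totals, no filter, a filter at 1 CPM, DESeq2 1.42.0, a fit of the compared groups only, a replicate block, the GC trend removed, and each library left out. The steps were tested on simulated counts. The members and gene lists were chosen with earlier results of these data known. Named were the 9 members, SMAD2, SMAD4 and CCN2, and per list and resistance comparison up to 3 genes with the largest change at 5 CPM or more. BMP7 was named after its values were seen. Some genes taken by this rule are left out of the text.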

Additional observations from a re-analysis of the deposited data

Results flagged for a closer look

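The resistance effect differed between the BRCA1 backgrounds, by the edgeR test of the difference itself (proficient minus deficient log2 fold change, adjusted p under 0.05 over all genes), for 8 members and 23 of the other pathway genes named. Most named genes were picked for a large resistance effect in a background, which favours such a difference. Of all 78 other pathway genes tested, 18 had a positive and 33 a negative difference, beside 21.4% and 25.3% of all genes tested. Positive differences were found for TGFB2 (0.998), TGFB3 (2.41), TGFBR2 (0.45) and SMAD3 (1.29) among the members. Among the other genes they were found for COL1A2 (5.01), FST (4.24), TGFBR3 (2.52), LTBP1 (2.14), GDF11 (1.76), ACVR1C (1.47), CDKN1A (1.21) and ITGAV (0.69). Negative differences were found for TGFB1 (-0.88), SMAD7 (-1.58), TGFBI (-1.96) and INHBA (-1.40) among the members. Among the other genes they were found for FN1 (-4.77), ID3 (-4.64), GREM1 (-3.69), SNAI2 (-3.68), JUNB (-3.20), PMEPA1 (-2.51), BMP6 (-2.21), LTBP4 (-1.95), THBS1 (-1.37), ENG (-1.35), GDF15 (-1.22), BAMBI (-1.10), FSTL3 (-0.86), SMAD5 (-0.75) and CCN2 (-0.70). With the GC trend removed, FSTL3 (-0.04, adjusted p = 0.846), ENG (-0.56, adjusted p = 0.0556) and TGFB1 (-0.42, adjusted p = 0.0667) no longer passed, and GDF15 was at -0.59, LTBP4 at -0.83 and ITGAV at 0.43, all past the threshold. In that setting SMAD2 (-0.45), SMAD4 (-0.30), ZFYVE9 (-0.30), SMAD9 (-0.99), NOG (0.87) and LTBP2 (0.36) passed, although they did not with the trend left in. FSTL3 was also lost without the second parental deficient library (-0.76, adjusted p = 0.0512) or the second resistant proficient library (-0.62, adjusted p = 0.0584). The TGFB1 and BAMBI differences were each lost under 7 of 16 other settings, BAMBI for example with DESeq2 (-1.08, adjusted p = 0.137). Groups of 2 libraries were too small for a check of single outlying libraries.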

How the results depend on the processing

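Over 17 alternatives (16 for the difference of effects), the members past the threshold numbered 4 to 6 in proficient and 5 to 7 in deficient cells, 8 to 9 between resistant and 6 in every setting between parental lines, and 7 to 8 for the difference. The other pathway genes numbered 45 to 60, 50 to 63, 58 to 63, 53 to 66 and 44 to 57 in the same order. Every such count stayed within 1.5 times its reported value. Of 756 single values of members, 722 kept their side of the threshold, 23 lost the call, 9 gained it and 2 reversed. Of 2846 values of other named genes these numbers were 2688, 85, 58 and 15. A change of sign counted as a reversal only where the value passed in the reported or the other setting. Values that passed in neither counted as kept whatever their sign, such as TGFB3 in deficient cells, at -0.82 to 0.28. The reversals came with the GC trend removed, without and with the replicate block. They were ENG in deficient cells (-0.34 and -0.34), SMAD4 (-0.016 and -0.016) and ITGAV (-0.34 and -0.34) between parental lines, TGFBR1 (-0.19 and -0.19), SMAD4 (-0.32 and -0.32), LTBP4 (0.49 and 0.49) and SMAD5 (-0.063 and -0.061) between resistant lines, LTBP2 for the difference (0.36 and 0.36), and, with the trend removed and the block together, JUNB between parental lines (0.38). The cause was not tested. Replicate numbers did not pair the libraries (correlations of deviations from -0.13 to 0.21). With the number as a block, 5 members passed in proficient and 7 in deficient cells, 9 between resistant and 6 between parental lines and 8 for the difference. Depth limits INHBA and TGFB3, at 6 to 68 counts in some libraries. Leaving out the first resistant deficient library moved the median difference of all genes by 0.10.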
